A study of Mus musculus with 4 samples.

Results

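Retinoic acid is made from vitamin A in a short chain of steps, is broken down in neighbouring cells, and acts through nuclear receptors. RDH10 oxidizes retinol to retinaldehyde, DHRS3 returns retinaldehyde to retinol, and ALDH1A2 makes retinoic acid from retinaldehyde. CYP26A1, CYP26B1 and CYP26C1 degrade retinoic acid, CRABP1 and CRABP2 bind it in the cytoplasm, and RARA and RARB are receptors that bind DNA together with an RXR partner. In the early pharynx and heart, retinoic acid is known to set anterior and posterior limits of the second heart field and to regulate Hox genes, and Cyp26a1 and Rarb are textbook targets of its receptors. The genes encoding these 10 proteins, Aldh1a2, Rdh10, Dhrs3, Cyp26a1, Cyp26b1, Cyp26c1, Crabp1, Crabp2, Rara and Rarb, were taken from a list and matched by Ensembl identifier. All 10 were found, among 27514 genes shared by the gene tables of the 4 libraries.

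The data were scRNA-seq libraries made with a droplet kit that reads transcript 3′ ends and counts molecules by unique molecular identifier (UMI). GFP-positive, DAPI-negative cells of the Tbx1 lineage were sorted from pooled Swiss Webster embryos, with 1 library for each genotype and stage. Ctrl embryos were Tbx1Cre/+;Rosa26-GFPflox/+ and cKO embryos were Tbx1Cre/flox;Rosa26-GFPflox/+, so the GFP reporter was shared by both, and Ctrl already carried 1 Tbx1 copy inactivated by the Cre insertion. At embryonic day (E) 8.5 the upper body was dissected and at E9.5 the pharyngeal apparatus with the heart, so stage cannot be told apart from dissection or library. Cre was driven by the Tbx1 locus, so that sorted cells were those that had expressed Tbx1 at some time, in mesoderm, endoderm and ectoderm.

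The libraries held 1434 cells (E8.5 Ctrl), 1090 (E8.5 cKO), 5453 (E9.5 Ctrl) and 6266 (E9.5 cKO), with medians of 15910.5 to 23984 UMIs per cell and totals of 25391654 to 104773150 UMIs. The E9.5 libraries shared 55 cell barcodes and no other pair shared more than 10. Levels are UMIs per 1e+06 UMIs of shared genes (UPM) with a 95% exact Poisson interval, and ratios are log2 ratios with a 95% exact conditional binomial interval. These intervals cover counting error only. Tbx1 itself was at 86.4 UPM in E8.5 Ctrl, 118 in E8.5 cKO, 103 in E9.5 Ctrl and 134 in E9.5 cKO, and so was not lower in the libraries labelled cKO. A 3′ count need not cover the deleted part of the floxed allele, so these values do not check the label, and cKO below means a library labelled so. No difference between groups could be tested, because each group was 1 library and cells are not replicates. UMI counts at 3′ ends are not proportional to transcript length and depend on the gene, so levels are compared within a gene and not between genes.

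Promoter sequence is shown for the degrading enzyme and the receptor that are textbook retinoic acid targets, and for Cyp26c1 and Aldh1a2 for contrast. The RefSeq windows (GRCm38.p6) run from 250 bases before to 50 after an annotated start, and 13 such windows were found for 8 of the 10 genes, with none for Rdh10 and Crabp2. Each was searched on both strands for direct repeats of the hexamer AGGTCA, the hexamer AGTTCA, the hexamer GGGTCA or the hexamer GGTTCA spaced by 1, 2 or 5 bases, the arrangement known to bind retinoic acid receptors. Capitals mark the hexamers that were found.

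Cyp26a1 (chr19:37697558-37697857, plus strand): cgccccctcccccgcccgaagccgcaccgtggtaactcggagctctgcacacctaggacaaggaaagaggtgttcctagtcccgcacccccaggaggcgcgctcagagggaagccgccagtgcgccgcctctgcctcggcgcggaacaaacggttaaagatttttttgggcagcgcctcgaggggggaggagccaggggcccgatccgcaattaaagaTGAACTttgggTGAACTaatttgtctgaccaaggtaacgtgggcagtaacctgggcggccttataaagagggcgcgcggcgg
Rarb (chr14:16575427-16575726, minus strand): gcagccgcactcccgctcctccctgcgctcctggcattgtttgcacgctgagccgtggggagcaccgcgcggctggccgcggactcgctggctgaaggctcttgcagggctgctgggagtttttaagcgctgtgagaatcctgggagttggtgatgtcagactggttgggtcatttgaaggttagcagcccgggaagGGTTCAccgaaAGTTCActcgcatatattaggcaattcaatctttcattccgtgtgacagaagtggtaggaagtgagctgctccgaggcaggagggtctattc
Cyp26c1 (chr19:37685430-37685729, plus strand): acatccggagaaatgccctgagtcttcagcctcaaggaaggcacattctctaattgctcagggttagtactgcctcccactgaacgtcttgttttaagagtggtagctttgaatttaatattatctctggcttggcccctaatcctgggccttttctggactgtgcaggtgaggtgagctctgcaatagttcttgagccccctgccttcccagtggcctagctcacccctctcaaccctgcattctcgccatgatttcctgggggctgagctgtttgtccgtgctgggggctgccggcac
Aldh1a2 (chr9:71215539-71215838, plus strand): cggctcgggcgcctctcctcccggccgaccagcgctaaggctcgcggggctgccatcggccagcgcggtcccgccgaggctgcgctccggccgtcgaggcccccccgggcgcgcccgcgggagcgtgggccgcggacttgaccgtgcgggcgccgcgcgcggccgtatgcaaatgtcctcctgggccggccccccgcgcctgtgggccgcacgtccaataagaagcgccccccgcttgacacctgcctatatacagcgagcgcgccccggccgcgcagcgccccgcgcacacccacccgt

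Matches were found in the windows of 2 genes, both with a spacer of 5 bases. That of Rarb began 53 bases before the annotated start of its window on the strand of the gene. That of Cyp26a1 began 32 bases before the annotated start of its window and was read on the opposite strand. Both of these starts lie inside the gene spans given below and not at their ends. Over 32851 promoter windows of the same length, 0.0974% held a match with a spacer of 5, 0.268% with a spacer of 2 and 0.222% with a spacer of 1, and matches of different spacers may overlap. A match is a description of the letters, and the other windows say only that these letters are not in them. By gene span on the same build, Cyp26c1 (ENSMUSG00000062432, chr19:37685112-37693320) and Cyp26a1 (ENSMUSG00000024987, chr19:37697738-37701536) lie next to each other, 4417 bases apart. The synthesis genes are Aldh1a2 (ENSMUSG00000013584, chr9:71215789-71296243) and Rdh10 (ENSMUSG00000025921, chr1:16105882-16132550). Dhrs3 (ENSMUSG00000066026), whose product returns retinaldehyde to retinol, lies at chr4:144892534-144928209. Cyp26b1 (ENSMUSG00000063415) lies at chr6:84571414-84593908. The binding proteins are encoded by Crabp1 (ENSMUSG00000032291, chr9:54764748-54773110) and Crabp2 (ENSMUSG00000004885, chr3:87948693-87953372), and the receptors by Rara (ENSMUSG00000037992, chr11:98927800-98974942) and Rarb (ENSMUSG00000017491, chr14:16430839-17082331).

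Cells were grouped by gates on fixed marker lists that hold neither Tbx1 nor any of the 10 genes. The gates were multilineage progenitor (MLP), anterior and posterior second heart field (aSHF, pSHF), branchiomeric muscle (BrM), cardiomyocyte (CM), somitic and mesenchyme within mesoderm, and endothelial, epithelial (endoderm, otic, surface ectoderm and other), neuronal, neural crest and blood. The study reports lower Aplnr, Wnt5a, Mef2c and Fgf10 in cKO MLPs and lower Lhx2 and Myf5 in cKO BrM cells. All of these are gate markers, so the gates are not independent of genotype. Their part in the ratios within groups was not tested beyond an alternative with 6 markers left out. Groups of fewer than 20 cells were not described. At E9.5 the pSHF gate held 73 Ctrl and 83 cKO cells, the MLP gate 287 in each, and the mesenchyme gate 2227 and 3451. Cells passing no gate numbered 1142 in E9.5 Ctrl and 1625 in E9.5 cKO. Fewer cKO than Ctrl cells passed the endoderm gate (39 against 264), the surface ectoderm gate (47 against 157) and the endothelial gate (112 against 403), while the neuronal gate held 65 cKO and 21 Ctrl cells and the blood gate 29 and 1. In E8.5 libraries the pSHF gate held 5 and 11 cells and epithelial gates 1 to 8, so neither is described at that stage. Gates were set on all UMIs of a cell, and the E8.5 medians were 17319.5 UMIs in Ctrl and 23984 in cKO. At E8.5, 48.3% of Ctrl and 26.1% of cKO cells passed no gate. Mesenchyme held 16.3% and 37.4%, aSHF 5.51% and 9.91%, and MLP cells 16.0% and 11.8%. The part of depth in these shares, and in the E8.5 ratios within groups, was not tested.

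**Figure D1:**
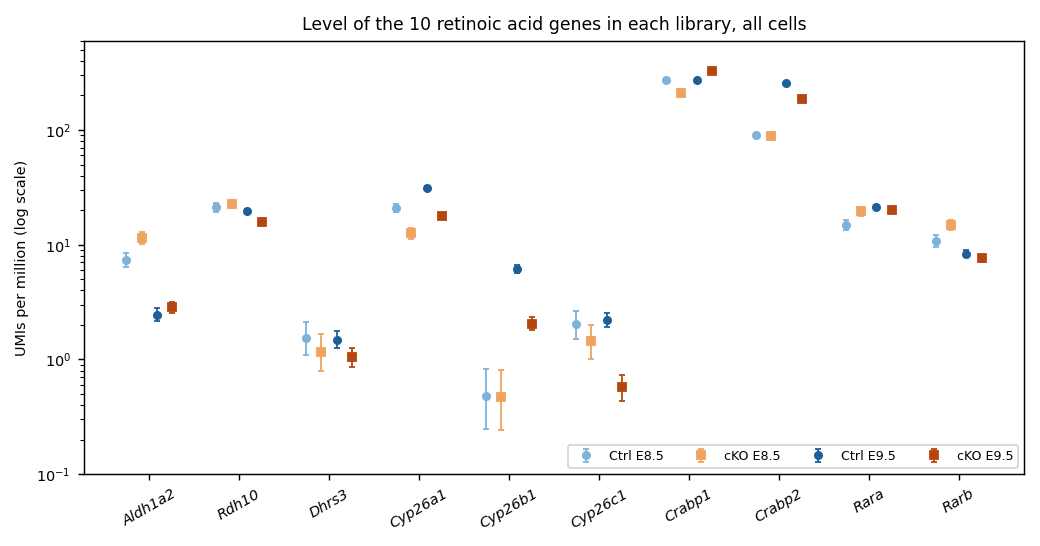
Level of each of the 10 genes over all cells of the 4 libraries, in UPM on a log axis, with bars giving the 95% counting interval. Aldh1a2 lay between 7.37 and 11.5 UPM at E8.5 and between 2.45 and 2.84 at E9.5, and Cyp26c1 in E9.5 cKO was at 0.573 UPM.

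Aldh1a2, the main enzyme of retinoic acid synthesis at these stages, was at 7.37 UPM over all cells of E8.5 Ctrl, 11.5 of E8.5 cKO, 2.45 of E9.5 Ctrl and 2.84 of E9.5 cKO. The E8.5 and E9.5 libraries did not overlap. At E9.5 its UMIs were concentrated in the heart-forming posterior mesoderm. The pSHF gate stood at 75.9 UPM (61.6 to 92.5) in Ctrl and 77.4 UPM (63.8 to 93.0) in cKO, MLP cells were next at 16.3 UPM (13.1 to 20.2) and 11.6 UPM (8.84 to 14.8), and the aSHF followed at 5.13 and 7.05 UPM. In Ctrl the steps from pSHF to MLP and from MLP to aSHF were wider than their counting intervals, and in cKO only the step from pSHF to MLP was. pSHF cells made up 1.34% of E9.5 Ctrl cells and held 42.4% of the Aldh1a2 UMIs, and in cKO they made up 1.32% of cells and held 38.0%. The BrM gate held 0 Aldh1a2 UMIs in both E9.5 libraries, over 232 and 173 cells.

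At a common depth of 10000 UMIs per cell, 47.8% of E9.5 Ctrl pSHF cells (32 of 67, 35.4% to 60.3%, exact binomial) and 45.0% of cKO pSHF cells (36 of 80, 33.8% to 56.5%) had an Aldh1a2 UMI. In the endothelial gate, taken as a background, the share was 0.265% of 378 Ctrl cells and 0 of 98 cKO cells, which allows a share of up to 3.06% by 3 counts and 3.69% by the exact interval. The full-depth medians were 18165 UMIs in Ctrl pSHF cells and 19949 in Ctrl endothelial cells. Mesenchyme cells lay near that background at 0.242% in Ctrl and 0.65% in cKO.

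**Figure D2:**
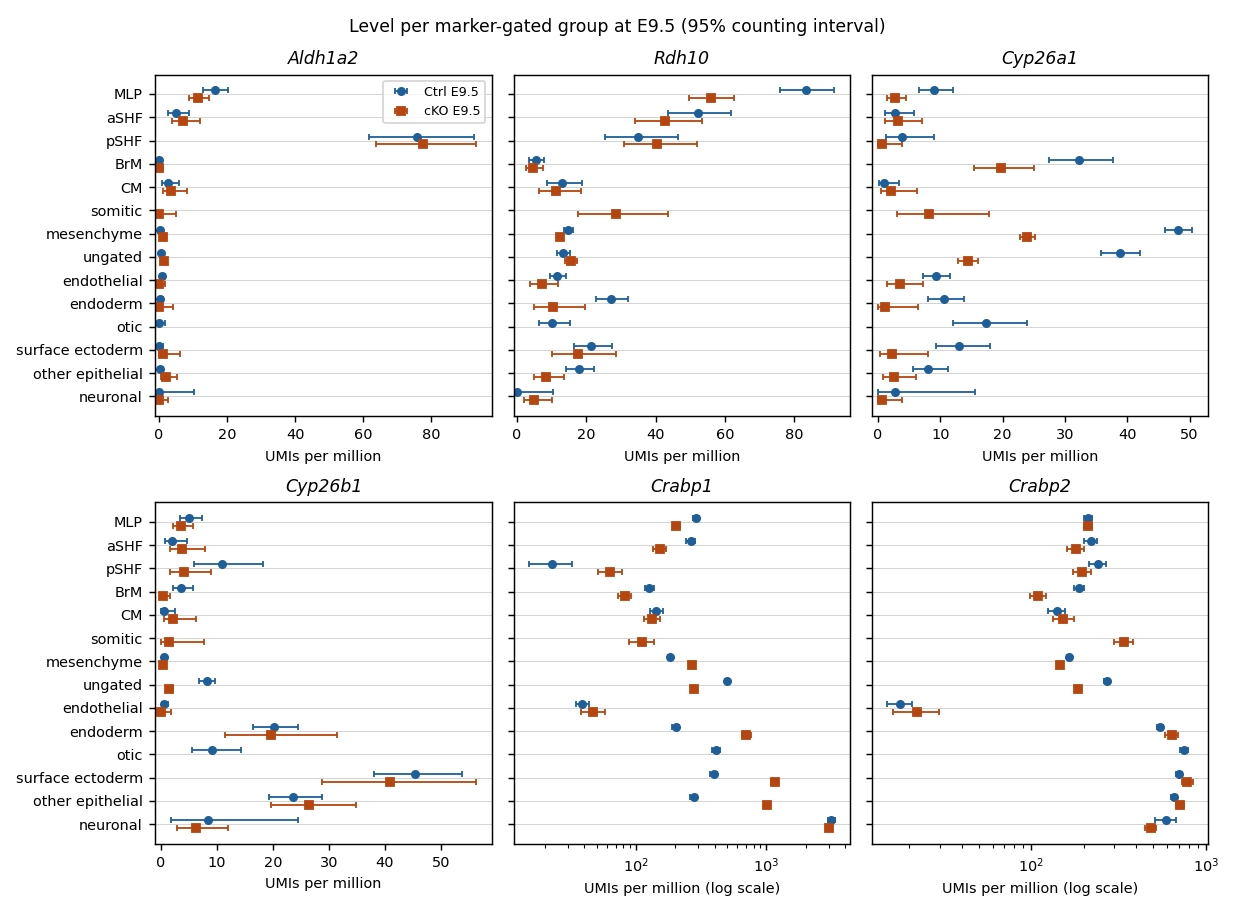
Level of 6 genes in each marker-gated group of at least 20 cells at E9.5, in UPM (log axis for Crabp1 and Crabp2), with circles for Ctrl, squares for cKO and bars for the 95% counting interval. Aldh1a2 stands at 75.9 and 77.4 UPM in the pSHF gate, Rdh10 is highest in MLP cells, and Cyp26a1 is highest in mesenchyme.

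Rdh10, which makes the retinaldehyde that ALDH1A2 uses, was spread more widely, with 21.2, 22.6, 19.8 and 15.8 UPM over all cells of E8.5 Ctrl, E8.5 cKO, E9.5 Ctrl and E9.5 cKO. MLP cells held 83.4 UPM (75.8 to 91.6) in E9.5 Ctrl and 55.9 UPM (49.7 to 62.6) in E9.5 cKO. At E8.5 the MLP and aSHF intervals overlapped, with 40.3 and 41.8 UPM in Ctrl and 46.3 and 40.4 UPM in cKO. The aSHF stood at 52.1 and 42.9 UPM at E9.5 in Ctrl and cKO, and the pSHF at 34.8 and 40.4, so that the 3 progenitor gates were the 3 highest in both E9.5 libraries. In mesodermal cells (the mesodermal gates without cardiomyocytes, and ungated cells) thinned to 10000 UMIs, 48.6% of 70 Aldh1a2-positive E9.5 Ctrl cells also had an Rdh10 UMI, against 14.6% of 3571 Aldh1a2-negative cells. The shares were 28.7% of 94 and 12.4% of 4978 in E9.5 cKO, while those at E8.5 were 20.4% against 18.8% in Ctrl and 25.6% against 17.8% in cKO. These and the later shares of gene pairs pool gates that differ in level. In E9.5 Ctrl, Rdh10 UMIs were in 51.1% of MLP, 31.3% of pSHF and 11.7% of mesenchyme cells. The part of the gates in such contrasts was not tested.

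Dhrs3, whose product runs the retinaldehyde step backwards, was sparse. It gave 1.55, 1.17, 1.49 and 1.05 UPM in E8.5 Ctrl, E8.5 cKO, E9.5 Ctrl and E9.5 cKO. Its highest gate at E9.5 was again the pSHF, at 6.97 UPM (9 UMIs) in Ctrl and 7.53 UPM (11 UMIs) in cKO. Cardiomyocytes at 6.0 UPM and endothelial cells at 4.26 UPM followed in Ctrl within overlapping intervals.

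Cyp26a1 had another distribution from Aldh1a2 at E9.5. Mesenchyme was highest at 48.2 UPM in Ctrl and 23.9 UPM in cKO, ungated cells followed in Ctrl at 38.8 UPM and BrM cells at 32.3 UPM, and the heart-forming gates were low, at 2.76 UPM in the aSHF, 3.87 in the pSHF and 0.923 in cardiomyocytes. Only 1 of 70 Aldh1a2-positive mesodermal cells of E9.5 Ctrl had a Cyp26a1 UMI (1.43%, 0.0362% to 7.70%), against 24.8% of 3571 Aldh1a2-negative cells (23.3% to 26.2%). In E9.5 cKO the numbers were 1 of 94 (1.06%, 0.0269% to 5.79%) against 12.4% of 4978 (11.5% to 13.3%). At E8.5 the contrast was smaller, with 11.1% against 16.7% in Ctrl and 7.69% against 11.3% in cKO. These shares pool gates, and so include differences between them. In E9.5 Ctrl, Cyp26a1 UMIs were in 1.49% of pSHF, 6.16% of MLP and 29.2% of mesenchyme cells. Aldh1a2 UMIs were in 47.8%, 9.06% and 0.242% of the same cells. Over all cells, the share with UMIs of both Aldh1a2 and any Cyp26 gene was 0.616% in E8.5 Ctrl, 0.596% in E8.5 cKO, 0.163% in E9.5 Ctrl and 0.0901% in E9.5 cKO, each below the product of the separate shares (0.804%, 0.945%, 0.385% and 0.234%). The product lay inside the exact interval of the observed share at E8.5 in both genotypes and above it at E9.5. Within the pSHF gate the share was 4.48% against a product of 5.70% in E9.5 Ctrl and 3.75% against 2.81% in E9.5 cKO, each on 3 cells with the product inside the interval. Within MLP cells (1.56% against 0.812%, 2 cells) and mesenchyme (0.988% against 0.856%, 4 cells) of E8.5 cKO it was also above the product, again inside the interval. In Ctrl it was above the product on 1 cell each in BrM, cardiomyocytes and endothelial cells at E8.5. The same held on 1 cell each in cardiomyocytes, endothelial and other epithelial cells of E9.5 Ctrl. The product lay inside the interval in each of these Ctrl groups.

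Cyp26b1 had its highest E9.5 levels in epithelial gates, but was not confined to them. At E9.5 it was highest in surface ectoderm, at 45.4 UPM (38.0 to 53.8) in Ctrl and 40.8 UPM (28.7 to 56.3) in cKO, followed by other epithelial cells at 23.6 and 26.5 UPM and endoderm at 20.2 and 19.6 UPM. Otic cells of Ctrl stood at 9.10 UPM, beside 10.8 UPM (5.93 to 18.2) in the pSHF and 5.07 UPM in MLP cells. Ungated Ctrl cells at 8.17 UPM held 22.0% of its UMIs in that library. Mesenchyme held 0.494 and 0.33 UPM in Ctrl and cKO. At E8.5 it was counted 12 times in each library. None of 885 E9.5 Ctrl mesodermal cells with a Cyp26a1 UMI had a Cyp26b1 UMI, with an exact interval up to 0.416%, against 55 of 2756 cells without a Cyp26a1 UMI (2.0%). In E9.5 cKO the numbers were 2 of 618 (0.324%, 0.0392% to 1.16%) against 43 of 4454 (0.965%, 0.70% to 1.30%), with overlapping intervals. At E8.5 they were 0 of 193 against 3 of 982 in Ctrl, and 1 of 100 against 3 of 810 in cKO.

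Cyp26c1 was sparse, and in E9.5 mesodermal cells was detected more often beside UMIs of Cyp26a1, its neighbour on chromosome 19. The Cyp26c1 level was 2.02 UPM in E8.5 Ctrl, 1.44 in E8.5 cKO, 2.23 in E9.5 Ctrl and 0.573 in E9.5 cKO. In E9.5 Ctrl it was detected in 4.97% (3.64% to 6.62%) of mesodermal cells with a Cyp26a1 UMI and in 2.14% (1.63% to 2.75%) of those without, and in E9.5 cKO in 1.78% (0.892% to 3.16%) and 0.359% (0.205% to 0.583%). At E8.5 the shares were 3.63% and 2.14% in Ctrl and 1.0% and 1.48% in cKO, with 7 and 1 doubly positive cells. Among the 7813 genes that reached 20 UPM in at least 1 sum, Cyp26a1 had the pattern most like Cyp26c1 over 38 library and group sums of at least 30 cells (Pearson r = 0.70 of log2 of UPM plus 10). Cyp26c1 reached at most 3.64 UPM in these sums, below the 10 added, so r rests on a narrow range. In E9.5 cKO the highest group of Cyp26c1 was BrM, and that of Cyp26a1 was mesenchyme.

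Crabp1 was highest in the neuronal gate, at 3152 UPM in E9.5 Ctrl and 3036 UPM in E9.5 cKO. The neural crest gate of E8.5 Ctrl (21 cells) stood at 1741 UPM, against 131 to 368 UPM in the other gates of that library. The lowest E9.5 levels were 22.5 UPM in pSHF and 38.6 UPM in endothelial cells of Ctrl. Crabp2 was high in epithelial and neuronal gates at E9.5, with 545 to 749 UPM over the endoderm, otic, surface ectoderm and other epithelial gates of Ctrl and 639 to 783 UPM over the 3 epithelial gates described in cKO. Neuronal cells held 589 and 483 UPM, and endothelial cells were lowest at 17.7 and 22.2 UPM.

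Rara ranged over the gates of E9.5 Ctrl from 13.2 UPM in BrM to 38.2 UPM in endoderm. Rarb was highest in endoderm, at 36.3 UPM (31.2 to 41.9) in E9.5 Ctrl and 43.9 UPM (31.0 to 60.2) in E9.5 cKO, above the next group in both without overlap of their intervals. It was at 2.20 UPM in BrM and 2.07 UPM in endothelial cells of E9.5 Ctrl. Among mesodermal gates of E9.5 Ctrl, the SHF gates and MLP cells held 13.9 to 15.0 UPM and mesenchyme 5.18 UPM.

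The genes most like a member over the same 38 sums were named by Pearson r alone, and these sums share libraries and depth. For Aldh1a2 they were Bhlhe41 (r = 0.84), Foxf1 (0.82), which is itself a marker of the pSHF gate, and Pnliprp1 (0.77). For Cyp26b1 the list began with the epithelial gene Krt7 (0.94). For Crabp1 they were Olfm1, Scg5 and Snhg11 (0.74, 0.74 and 0.73), and for Cyp26a1 Armcx2, Colec12 and Qtrt1 (0.68, 0.65 and 0.65). Wwp1 (0.64) and Itih5 (0.63) followed Cyp26a1 in the list for Cyp26c1.

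To place the genes along the body axis, the same mesodermal cells, thinned to 10000 UMIs, were sorted by the highest-numbered Hox paralogue group, from 1 to 5, with a UMI, since higher-numbered Hox genes are expressed more posteriorly. Most cells had none, from 53.3% in E9.5 cKO to 63.5% in E9.5 Ctrl. Aldh1a2 was higher in cells with a group 4 UMI than in cells with none in all 4 libraries. The levels were 37.9 against 2.66 UPM in E8.5 Ctrl, 78.3 against 8.05 in E8.5 cKO, 19.8 against 0.649 in E9.5 Ctrl and 26.6 against 0.296 in E9.5 cKO. Their counting intervals did not overlap in any library, with 11, 18, 23 and 58 UMIs behind the group 4 values.

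Cyp26a1 ran in the opposite direction in the same cells. It was at 6.90 against 29.6 UPM in E8.5 Ctrl, 0 against 21.5 in E8.5 cKO, 5.17 against 40.4 in E9.5 Ctrl and 2.75 against 20.2 in E9.5 cKO. The group 4 values rest on 2, 0, 6 and 6 UMIs. In the E9.5 libraries Cyp26a1 was still at 50.4 UPM (Ctrl) and 23.9 UPM (cKO) in group 2 cells, and at 25.0 and 11.1 UPM in group 3 cells. Rdh10 in E9.5 Ctrl was at 12.4 UPM in cells with no Hox UMI, 64.3 in group 3, 75.0 in group 4 and 136 (101 to 180) in group 5. In E9.5 cKO it was at 7.33, 35.9, 38.5 and 41.5 UPM (28.7 to 57.9), and in group 4 and 5 cells the Ctrl and cKO intervals did not overlap. At E8.5 Rdh10 was at 17.7 and 18.4 UPM in Ctrl and cKO cells with no Hox UMI and higher, without overlap, in group 3 cells at 45.9 UPM (26.8 to 73.6) and 56.2 UPM (37.1 to 81.8). Group 4 cells at that stage held 31.0 UPM (Ctrl, 9 UMIs) and 4.35 UPM (cKO, 1 UMI). Rarb stood at 4.2 and 33.3 UPM in the first and last of these bins in E9.5 Ctrl, and at 5.55 and 22.0 UPM in E9.5 cKO.

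**Figure D3:**
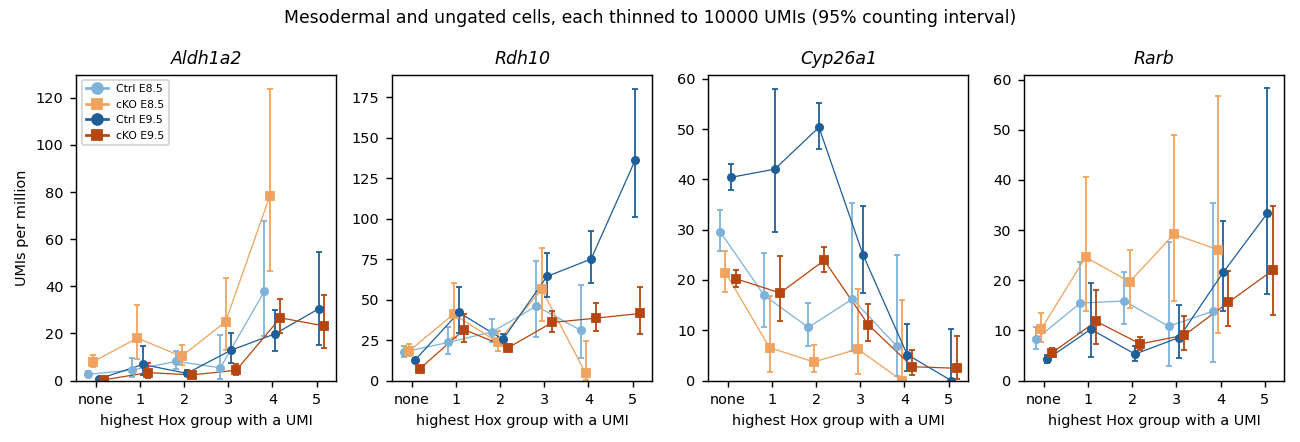
Levels of Aldh1a2, Rdh10, Cyp26a1 and Rarb in UPM, in mesodermal cells (cardiomyocytes left out) sorted by the highest Hox paralogue group with a UMI, for the 4 libraries with 95% counting intervals and bins of at least 20 cells. Aldh1a2 in group 4 cells lies between 19.8 and 78.3 UPM and in cells without a Hox UMI between 0.296 and 8.05 UPM.

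The mesodermal cells were also split by whether they held a Tbx1 UMI at the same depth, a description added after the levels had been seen. Aldh1a2 was lower in cells with a Tbx1 UMI in all 4 libraries, by log2 ratios of -0.51 (-1.26 to 0.23) in E8.5 Ctrl, -0.81 (-1.36 to -0.27) in E8.5 cKO, -0.95 (-1.55 to -0.36) in E9.5 Ctrl and -1.40 (-1.93 to -0.89) in E9.5 cKO. For Cyp26a1 the ratios were -0.04, 0.51, 0.22 and 0.07 in the same order, and only that of E9.5 Ctrl (0.07 to 0.38) had an interval above 0. Crabp1 was lower in cells with a Tbx1 UMI in each library, from -1.31 in E9.5 Ctrl to -0.42 in E9.5 cKO.

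The comparison of cKO with Ctrl at E9.5 asks which of these genes differ between the libraries labelled cKO and Ctrl. The cKO library at this stage was counted on another gene table than the others, and whether this bears on single genes was not tested. All 3 degrading enzymes were lower in cKO. Over all cells Cyp26a1 was at 31.2 UPM in Ctrl and 18.0 in cKO, a log2 ratio of -0.79 (-0.88 to -0.71). Cyp26b1 was at 6.17 and 2.05 UPM (log2 ratio -1.59, -1.82 to -1.36), and Cyp26c1 at 2.23 and 0.573 UPM (-1.96, -2.40 to -1.54). The median of all genes with at least 30 UMIs was -0.26, and relative to that shift the 3 ratios were -0.54, -1.33 and -1.70. A ratio of 2 in either direction is used as the mark of size below, and 2 of the 10 genes, Cyp26b1 and Cyp26c1, lay past it, beside 12.4% of 14573 genes.

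The other members differed less over all cells. The ratios were 0.21 (-0.04 to 0.47) for Aldh1a2, -0.33 for Rdh10, -0.50 for Dhrs3, 0.26 for Crabp1, -0.46 for Crabp2, -0.09 for Rara and -0.14 for Rarb. Relative to the median of all genes, Rdh10 stood at -0.07, Crabp2 at -0.21, Aldh1a2 at 0.47 and Crabp1 at 0.52. Rara and Rarb changed sign with this step, to 0.17 and 0.12.

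Cyp26a1 was lower in every gated group that could be compared. It reached 30 UMIs over both libraries in 8 of the 12 groups, and its ratio was below 0 in all 8, with the interval below 0 and below the group's own median of all genes in all 8. Mesenchyme went from 48.2 to 23.9 UPM (log2 ratio -1.01, -1.11 to -0.91), ungated cells from 38.8 to 14.4 UPM (-1.43), MLP cells from 9.02 to 2.65 UPM (-1.77, -2.74 to -0.88), BrM cells from 32.3 to 19.7 UPM (-0.71) and endothelial cells from 9.26 to 3.53 UPM (-1.39). The epithelial groups had the lowest ratios on few counts, with endoderm from 54 UMIs to 1 (-3.20, -8.53 to -0.66), surface ectoderm from 38 to 2 (-2.57, -5.66 to -0.61) and other epithelial cells from 35 to 5 (-1.63, -3.34 to -0.27). The mesenchyme ratio was -0.81 relative to its own median, and the MLP ratio was -0.83 where the 6 gate markers that the study discusses were left out, both within 2-fold.

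Cyp26c1 could be compared in 2 groups, and was lower in both. In the 2 countable groups Cyp26c1 went from 3.07 to 0.61 UPM in mesenchyme (log2 ratio -2.33, -2.91 to -1.79) and from 3.64 to 0.422 UPM in ungated cells (-3.11, -4.31 to -2.08). Cyp26b1 differed from both: in the epithelial gates where it was highest its ratios were -0.04 (endoderm), -0.15 (surface ectoderm) and 0.16 (other epithelial). Its large ratio was in ungated cells, from 8.17 to 1.5 UPM (-2.44, -3.05 to -1.88). Those 128 Ctrl UMIs were in 3.42% of the 1142 ungated cells, and the 32 cKO UMIs in 1.35% of 1625, so a small share of cells carries this ratio. With the gated groups averaged at the Ctrl library's shares of cells, the Cyp26b1 ratio was -0.51, that of Cyp26c1 -2.13 and that of Cyp26a1 -1.14.

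**Figure D4:**
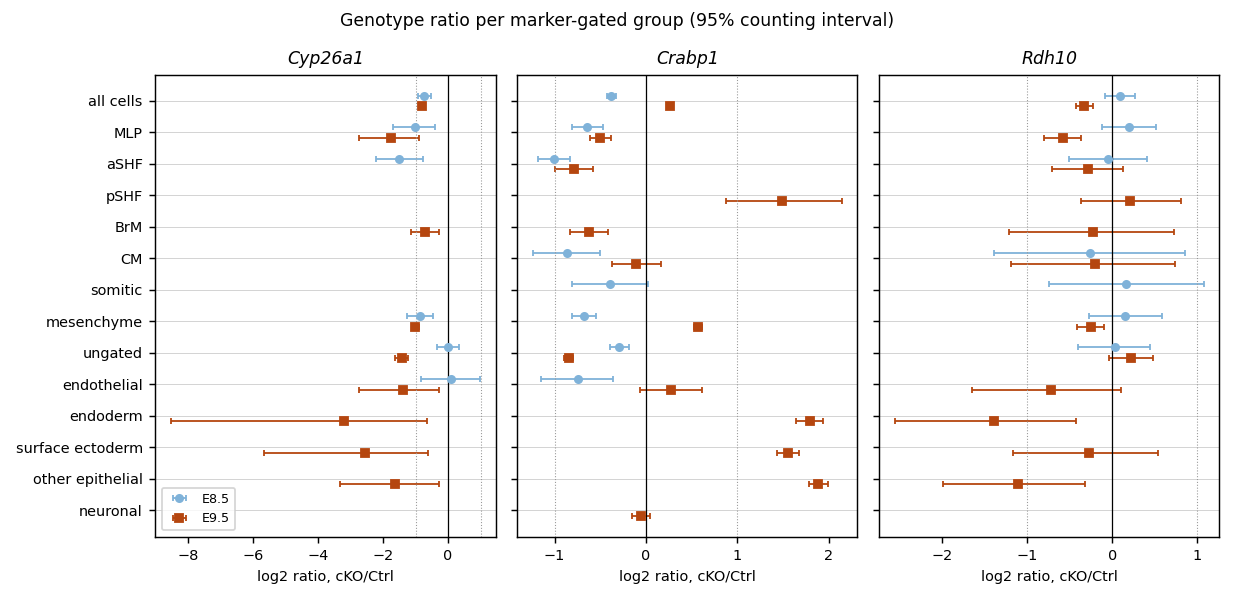
Log2 ratio of cKO to Ctrl for Cyp26a1, Crabp1 and Rdh10, over all cells and in each gated group with at least 30 UMIs over both libraries, at E8.5 (circles) and E9.5 (squares), with 95% counting intervals and dotted lines at 2-fold. All 8 Cyp26a1 groups at E9.5 lie below 0, from -3.20 to -0.71, and at that stage Crabp1 lies on both sides, from -0.84 to 1.88.

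Aldh1a2 was not lower with cKO in the pSHF gate, which held the largest share of its UMIs, with a ratio of 0.03. MLP cells held 37.7% of its UMIs in Ctrl and 20.5% in cKO, and the ratio there was -0.50. The MLP interval lay below 0 but not below the group's own median of all genes. Aldh1a2 was higher in mesenchyme and ungated cells, at low levels. In mesenchyme it went from 10 UMIs (0.26 UPM) to 67 UMIs (1.10 UPM), a ratio of 2.09 (1.12 to 3.21). The endothelial gate, taken as a background above, stood at 0.853 UPM in Ctrl and at 0 UMIs in cKO, with a limit of 1.86 UPM. The mesenchyme values thus lie near that background. In ungated cells Aldh1a2 went from 8 to 32 UMIs (1.56, 0.41 to 2.88). Summed pSHF markers were at 14.6 UPM in Ctrl and 18.2 UPM in cKO mesenchyme, and their part in the difference was not tested. Rdh10 was lower in MLP cells (-0.58, -0.80 to -0.36), in endoderm (27.3 against 10.4 UPM, -1.39) and in other epithelial cells (17.9 against 8.30 UPM, -1.11), and its ratio in pSHF was 0.21 (-0.37 to 0.81).

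Crabp1 went in opposite directions by group at E9.5. It was higher in cKO in endoderm (202 against 699 UPM, log2 ratio 1.79), surface ectoderm (393 against 1155 UPM, 1.55), other epithelial cells (276 against 1019 UPM, 1.88), pSHF (22.5 against 63.0 UPM, 1.49) and mesenchyme (181 against 269 UPM, 0.57). It was lower in MLP cells (-0.50), aSHF (-0.79), BrM (-0.62) and ungated cells (-0.84). The 8 neuronal markers summed to 10.0 and 5.77 UPM in endoderm, 18.9 and 23.2 UPM in surface ectoderm and 11.7 and 99.1 UPM in other epithelial cells of Ctrl and cKO. In cKO, 4, 3 and 0 of the 8 were at 0 in these gates, and their part in the difference was not tested. In the neuronal gate itself, Crabp1 had a ratio of -0.05.

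Beside these, the number of members past 2-fold within a group was 1 of 8 with at least 30 UMIs in MLP cells (7.32% of all genes so counted), 1 of 6 in pSHF (7.57%), 3 of 10 in mesenchyme (7.44%), 4 of 9 in ungated cells (8.64%), 1 of 6 in endothelial cells (7.61%), 3 of 7 in endoderm (12%), 2 of 7 in surface ectoderm (9.16%) and 3 of 7 in other epithelial cells (7.39%). No member lay past 2-fold in the other groups, with 0 of 5 in aSHF (7.45%), 0 of 5 in BrM (9.24%), 0 of 5 in cardiomyocytes (7.85%) and 0 of 3 in neuronal cells (11.7%). Members could be counted only where they reached 30 UMIs.

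At E8.5, where cKO and Ctrl differed less over all genes, none of the 9 members with at least 30 UMIs lay past 2-fold, beside 3.26% of 12135 genes. Cyp26a1 was again lower, at 20.9 UPM in Ctrl and 12.6 in cKO (log2 ratio -0.73, -0.93 to -0.53), beside -0.79 at E9.5. The median of all genes was 0.04 at E8.5 and -0.26 at E9.5. Relative to it the E8.5 ratio was -0.77, farther below 0 than the E9.5 value given above. Within groups Cyp26a1 was lower in MLP cells (17.5 against 8.57 UPM, -1.03, -1.68 to -0.41), aSHF (28.5 against 10.1 UPM, -1.5, -2.23 to -0.78) and mesenchyme (20.1 against 11.0 UPM, -0.87, -1.28 to -0.47). In ungated and endothelial cells its ratios were -0.01 (-0.35 to 0.32) and 0.08 (-0.84 to 0.98). In MLP cells Cyp26a1 was the 1 of 7 countable members past 2-fold (3.12% of all genes), and in aSHF Cyp26a1 and Crabp1 were the 2 of 7 (4.12%). Crabp2 was the 1 of 3 in cardiomyocytes (5.01%) and the 1 of 4 in endothelial cells (4.25%), and Aldh1a2 the 1 of 4 in somitic cells (3.54%). None of 8 lay past it in mesenchyme (3.62%) or in ungated cells (3.13%). The E8.5 libraries differed in depth and in the share of cells in each gate, as given above.

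Aldh1a2 was higher in cKO at E8.5, 11.5 against 7.37 UPM (log2 ratio 0.64, 0.37 to 0.91). Its ratios in groups were 0.95 in aSHF, 0.48 in MLP cells, 0.56 in ungated cells and 0.03 in mesenchyme. The ratio in somitic cells was 1.47 (0.35 to 2.73), on 9 UMIs in Ctrl and 29 in cKO. These UMIs were in 4.55% of 44 Ctrl and 13.5% of 37 cKO somitic cells, so few cells carry this ratio. The receptors were also somewhat higher, at 0.39 (0.19 to 0.59) for Rara and 0.47 (0.24 to 0.70) for Rarb. Crabp1 was lower at -0.38 (-0.43 to -0.33), and below 0 in all 7 groups. Crabp2 was at 90.1 and 89.1 UPM over all cells (-0.02), but lower in cardiomyocytes (76 against 26 UMIs, -1.52, -2.22 to -0.86) and endothelial cells (29 against 9 UMIs, -1.55, -2.81 to -0.43) and higher in somitic cells (0.78). Rdh10 stood at 21.2 and 22.6 UPM (0.09). With neuronal, neural crest, blood and mixed cells left out, a setting chosen after seeing the data, the Crabp1 ratio was -0.67 at E8.5 and 0.20 at E9.5.

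Between stages, Aldh1a2 was lower and Crabp2 and Cyp26b1 higher at E9.5 in both genotypes. In Ctrl the log2 ratios of E9.5 to E8.5 were -1.59 for Aldh1a2 (-1.87 to -1.30), 1.51 for Crabp2 (1.44 to 1.57) and 3.70 for Cyp26b1 (2.88 to 4.66). In cKO they were -2.01 (-2.25 to -1.78), 1.06 (1.0 to 1.12) and 2.14 (1.31 to 3.11), and Cyp26c1 was lower there as well, at -1.33 (-1.94 to -0.69), against 0.14 in Ctrl. The median of all genes was 0.38 in Ctrl and 0.06 in cKO. Relative to it, Aldh1a2 stood at -1.97 and -2.07 and Crabp2 at 1.12 and 1.0. Thus 3 of 10 members lay past 2-fold in Ctrl, beside 19.7% of 13828 genes, and 4 of 10 in cKO, beside 15.9% of 13770.

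The stage difference of Aldh1a2 was not shared by all groups. In Ctrl mesenchyme it went from 7.96 UPM at E8.5 to 0.26 UPM at E9.5 (log2 ratio -4.93, -6.11 to -3.90), in ungated cells from 4.46 to 0.511 UPM (-3.13), and in MLP cells from 11.6 to 16.3 UPM (0.49, -0.02 to 1.01). In cKO the ratios were -2.88 in mesenchyme, -2.13 in ungated cells and -0.49 (-1.04 to 0.05) in MLP cells. Crabp2 in Ctrl was higher at E9.5 in mesenchyme (2.16), BrM (1.79), ungated cells (1.40), MLP cells (1.33) and aSHF (1.16), with ratios of 0.16 in cardiomyocytes and -0.46 in endothelial cells. Cyp26a1 in Ctrl was higher at E9.5 in mesenchyme (1.26) and ungated cells (0.73), and lower in aSHF (28.5 to 2.76 UPM, -3.36), BrM (-1.29), endothelial (-1.05) and MLP cells (-0.95). Rdh10 went the other way in Ctrl MLP cells, from 40.3 to 83.4 UPM (1.05).

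The rest of the pathway was followed through 18 other retinoid genes. Among the 17 with at least 30 UMIs at E9.5, 1 was higher and 1 lower in cKO by 2-fold or more, beside 12.4% of all genes in either direction, with a median log2 ratio of -0.12 against -0.26 for all genes. Aldh1a3, another retinaldehyde dehydrogenase, was at 1.42 UPM in Ctrl and 12.5 UPM in cKO (log2 ratio 3.14, 2.88 to 3.41). Its cKO level was similar in many groups, at 12.9 UPM in mesenchyme, 11.7 in MLP cells, 14.8 in BrM and 19.1 in endothelial cells, against 0.754, 0.376, 0.601 and 0.487 UPM in Ctrl. Surface ectoderm was at 16.2 UPM in Ctrl and 3.31 UPM in cKO. Rxrg, a retinoid X receptor, was lower (4.48 against 1.25 UPM, -1.84). At E8.5, 1 of 17 lay past 2-fold (3.26% of all genes), Aldh1a3 at 2.18 and 6.72 UPM (1.63, 1.18 to 2.09), and the list median was 0.11 against 0.04. Between stages 1 of 17 was higher in Ctrl (19.7% of all genes past 2-fold), with a list median of 0.36 against 0.38, and 1 of 17 in cKO (15.9%), at 0.01 against 0.06.

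Of 18 genes known to respond to retinoic acid, 16 had at least 30 UMIs at E9.5, of which 1 was higher and 1 lower past 2-fold (12.4% of all genes), with a median of 0.07 against -0.26. These were Hoxb3 (2.55 against 5.22 UPM, log2 ratio 1.04) and Ripply3, a repressor expressed in pharyngeal epithelium (15.6 against 5.26 UPM, -1.57). Ripply3 was at 97.6 UPM in Ctrl and 154 UPM in cKO endoderm, and at 120 and 65.4 UPM in other epithelial cells. In some gates more of the list lay past 2-fold, and in others none did. In mesenchyme 4 of 15 were higher and 0 lower (7.44% of all genes), with a median of 0.69 against -0.20, and in ungated cells 5 of 15 were higher and 0 lower (8.64%), with a median of 0.76 against -0.25. Both included Hoxb3 (2.03 and 1.73), Hoxb4 (2.24 and 1.95) and Hoxb5 (2.77 and 2.36), named after their values were seen. In MLP cells 3 of 15 were higher and 1 lower (7.32%), with a median of 0.05 against -0.23. In aSHF 3 of 12 were higher and 1 lower (7.45%). In pSHF 2 of 12 were higher (7.57%), and in other epithelial cells 2 of 15 (7.39%). In endothelial cells 1 of 10 was higher (7.61%), in neuronal cells 1 of 11 (11.7%), and in endoderm 1 of 12 was lower (12%). None lay past it in BrM (0 of 7, 9.24%), cardiomyocytes (0 of 6, 7.85%) or surface ectoderm (0 of 11, 9.16%). At E8.5, 2 of 17 were higher and 0 lower by 2-fold or more (3.26% of all genes), Hoxa3 (1.07) and Ripply3 (2.93 against 7.34 UPM, 1.32), with a median of 0.21 against 0.04. Between stages 4 of 17 were higher and 2 lower in each genotype (19.7% of all genes in Ctrl, 15.9% in cKO), with medians of 0.40 against 0.38 in Ctrl and 0.10 against 0.06 in cKO. Those with at least 100 UMIs included Ripply3 (2.41), Nr2f1 (2.09) and Hoxa3 (1.33) in Ctrl, and Nr2f1 (3.04), Hoxb5 (1.42) and Hoxb4 (1.37) in cKO.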

How the data were processed

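Single cells of the Tbx1 lineage were profiled in 4 libraries, 1 per genotype and stage, so no p-values were computed. Deposited values were whole-number UMI counts, not normalized, which the authors made with Cell Ranger (3.1.0 per the labels; the header of the E8.5 matrices gives 3.0.2) on mm10. Counts were summed over the 27514 Ensembl identifiers shared by all gene tables; E9.5 cKO was counted on another table (31053 genes) than the rest (27998). Other deposited files gave barcodes and gene names. All barcodes were kept and no doublet caller was run; cells in more than 1 lineage gate were set apart as mixed.

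The members and lists were chosen with earlier results of these data known, and the gene pairs, the split by Tbx1 UMIs and 2 alternatives (shared barcodes left out; neuronal, neural crest, blood and mixed cells left out) after seeing the data. Named genes were the 10 members, up to 4 genes per comparison from the 2 other lists (past 2-fold, at least 100 UMIs, largest log2 ratio), and the 3 genes most like 5 members; some genes that this rule names are not reported here. A cell entered a lineage gate (endothelial, blood, epithelial, neuronal, neural crest, cardiomyocyte) first, and otherwise the mesodermal gate with the highest share of its markers. The number of markers with a UMI that a gate needed was set from the markers alone. Levels carry exact Poisson, ratios exact conditional binomial and shares exact (Clopper-Pearson) 95% intervals. A sum of 0 was given a floor of 3 UMIs. Genes counted as past 2-fold needed 30 UMIs over both libraries. For shares and Hox bins each cell was thinned to 10000 UMIs, which left out 135, 84, 555 and 718 cells of E8.5 Ctrl, E8.5 cKO, E9.5 Ctrl and E9.5 cKO. The ratio was tested on simulated data. Sums and intervals were computed with scipy 1.17.1 (Python 3.11.15; pandas 2.3.3), with edgeR 4.0.16 for TMM factors as an alternative. Gene positions and promoters are RefSeq's on GRCm38.p6.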

Additional observations from a re-analysis of the deposited data

Results flagged for a closer look

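Some members had intervals on opposite sides of 0, and of the median of all genes, in the same contrast at the 2 stages or in the 2 genotypes. With 1 library per group these differences were not tested. The log2 ratio of cKO to Ctrl for Crabp1 was -0.38 at E8.5 and 0.26 at E9.5 over all cells, and -0.67 and 0.57 in the mesenchyme gate. Rarb in ungated cells was at -0.61 at E8.5 and 0.91 at E9.5, and the E8.5 value was 0.083 where gates needed 1 more marker. Cyp26a1 in ungated cells had a log2 ratio of E9.5 to E8.5 of 0.73 in Ctrl and -0.69 in cKO.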

How the results depend on the processing

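The number of members past 2-fold was 2 at E9.5 under all 9 alternatives to the scaling, cells or weights, but at the Ctrl shares of gated groups the genes were Cyp26a1 (-1.14) and Cyp26c1 (-2.13), with Cyp26b1 at -0.51. At E8.5 the number was 0, and 2 where cells were thinned to 10000 UMIs (Aldh1a2 at 1.08 and Dhrs3 at -1.07, the latter on few UMIs). The numbers by stage stayed within 2 to 3 in Ctrl and 4 to 5 in cKO. Within gated groups, 24 pairs of a member and a group lay past 2-fold, and 22 to 28 under the alternatives. The highest group of a member in a library was the same in 24 of 40 cases where gates needed 1 more marker, in 6 of 20 at E8.5 and 18 of 20 at E9.5. The sign turned in 4 values whose interval excluded 0: Rdh10 by stage in cKO was 0.029 at the E8.5 shares of groups, Rarb in ungated cells at E8.5 was 0.083 with 1 more marker, Crabp2 in MLP cells at E8.5 was -0.49 with 6 markers out of the gates, and Crabp2 in mesenchyme at E9.5 was 0.017 relative to the median. Of the other values outside the main counts, 601 stayed within their counting interval and 154 did not. The 154 include 4 shares of all genes, given next, and the rest are for single genes. Without the minimum of 30 UMIs, the share of all genes past 2-fold was 22.8% in place of 12.4% at E9.5, 16.6% in place of 3.26% at E8.5, 31.1% in place of 19.7% by stage in Ctrl and 29.7% in place of 15.9% in cKO. The relation to Hox groups kept its direction in all 4 libraries with all UMIs. With a minimum of 2 UMIs no cell was doubly positive in any library, where the products were 0.0279% to 0.0593% of cells, so that this setting says nothing about stability. No replicate could be left out and no paired analysis was possible because each group was 1 library. Low levels, such as those of Cyp26c1, Dhrs3 and Cyp26b1 at E8.5, are limited by depth.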
